A study of Mus musculus with 24 samples.

Results

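The 181 genes described here are mouse zinc finger protein genes whose symbol is Zfp followed by a number below 600. They were taken from 55421 genes in each table by name and by a mean raw count of at least 20 over the 12 embryo libraries, with 5 names left out by rule (Zfp26, Zfp36, Zfp42, Zfp57 and Zfp365). Of 197 genes so named, 16 were under the minimum. The lowest members were Zfp593 with a mean count of 20.75, Zfp456 with 29.75 and Zfp459 with 31.5, and the nearest genes left out were Zfp524 with 19.17, Zfp92 with 18.67 and Zfp575 with 15.33. All 181 passed the filter on low counts in both tissues.

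Messenger RNA was sequenced from whole embryos and from yolk sacs of C57BL/6 mice at embryonic day 9.5. Setd2 encodes the methyltransferase that puts the third methyl group on lysine 36 of histone H3. A Setd2-null line and a Setd2 catalytic dead line, which carries a mutation derived from a patient, were each sampled as wild type (WT), heterozygous (HE) and homozygous (HO), with 2 libraries per group and 24 in all. No Cre, transgene or drug is named in the labels, and the labels do not say how many animals went into a library, so p-values measure the spread between libraries, which may be in part technical.

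C2H2 zinc finger proteins bind DNA through tandem fingers, each held by paired cysteines and histidines around a zinc ion. Many of them carry a KRAB box at the amino end, which recruits Trim28 and, through it, the H3K9 methyltransferase Setdb1, HP1 proteins and the NuRD complex to silence transposons and imprinted loci. KRAB zinc finger genes arose by tandem duplication and lie in clusters, and their own transcribed bodies are known to carry H3K9 trimethylation together with H3K36 trimethylation. Members without a KRAB box include general transcription factors, neural regulators and proteins of RNA and ribosome biology. A profile search of the translated GENCODE M21 coding sequences found a KRAB box in 98 members and none in 81, and 2 members, Zfp125 and Zfp469, had no annotated coding sequence. The longest protein of each gene held 0 to 36 matches to the finger pattern, with a median of 12 for members with a KRAB box and 8 for those without.

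The 250 bases before the start site were available from RefSeq (GRCm38.p6, the assembly also called mm10) for 144 members, at 174 starts. The sequences of 3 genes that fell in homozygous embryos of both lines and of 1 gene that rose are shown. They were picked because an element frequent in KRAB promoters stands in 2 of them, Zfp111 with a KRAB box and Zfp180 without one. The capitals mark matches to 1 of 5 motifs, each searched on both strands: the longer element known for binding Zfp143 with Thap11, the ETS-type motif CCGGAAG, the GC box GGGCGG, the CCAAT box and the TATA box TATAAA. No motif shares its letters with another in these 4 sequences.
Zfp110, chr7:12834511-12834760, plus strand: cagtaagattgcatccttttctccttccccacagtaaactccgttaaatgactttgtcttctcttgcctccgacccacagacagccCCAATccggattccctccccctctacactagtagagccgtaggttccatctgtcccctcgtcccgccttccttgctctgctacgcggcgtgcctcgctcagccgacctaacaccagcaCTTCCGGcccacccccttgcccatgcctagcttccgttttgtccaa
Zfp180, chr7:24081647-24081896, plus strand: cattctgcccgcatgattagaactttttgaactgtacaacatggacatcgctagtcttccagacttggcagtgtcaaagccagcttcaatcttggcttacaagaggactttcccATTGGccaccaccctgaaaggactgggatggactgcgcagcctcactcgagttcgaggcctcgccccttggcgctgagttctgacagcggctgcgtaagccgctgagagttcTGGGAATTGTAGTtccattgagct
Zfp111, chr7:24208150-24208399, minus strand: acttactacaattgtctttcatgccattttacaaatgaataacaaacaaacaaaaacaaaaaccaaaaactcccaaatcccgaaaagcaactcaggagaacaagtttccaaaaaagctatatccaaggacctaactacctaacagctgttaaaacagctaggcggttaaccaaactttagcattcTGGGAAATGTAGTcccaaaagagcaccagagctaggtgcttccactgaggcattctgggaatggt
Zfp467, chr6:48445091-48445340, minus strand: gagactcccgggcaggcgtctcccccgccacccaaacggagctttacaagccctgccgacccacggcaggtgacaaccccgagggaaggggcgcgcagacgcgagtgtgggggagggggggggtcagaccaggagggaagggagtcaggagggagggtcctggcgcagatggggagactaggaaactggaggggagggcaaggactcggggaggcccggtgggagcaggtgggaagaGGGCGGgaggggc
A second RefSeq start of Zfp111 (chr7:24203584-24203833), not shown, held none of the 5 motifs. The promoters of Zfp329 and Zfp113, which also fell in both lines, are not shown and lack the Zfp143 element. That of Zfp329 held TATAAA and that of Zfp113 none of the 5 motifs. Zfp180 and the Zfp111 start shown held the Zfp143 element on the reverse strand, the first together with a CCAAT box, Zfp110 held an ETS-type match and a CCAAT box, and Zfp467, with a GC content of 70.4%, held GGGCGG. The Zfp143 element was present in 33.3% of the promoters of KRAB members, 14.1% of those of other members and 2.06% of all 32851 promoters. It stood in 29.2% of the 48 promoters of members that fell in both lines and in 23% of the 126 others. GGGCGG was present in 30.2% of KRAB, 59% of other member and 32.7% of all promoters, CCAAT in 36.8% of member and 33.8% of all promoters, and TATAAA in 7.47% and 12.4%. CCGGAAG was present in 21.3% of member promoters and 6.91% of all promoters, and the median number of CpG sites was 13 in member promoters and 6 in all. These matches are a description of the letters and not of binding. Zfp143, itself a member, had a log2 change of -0.06 (adjusted p = 0.609) in null and -0.17 (adjusted p = 0.158) in catalytic dead homozygous embryos by edgeR's quasi-likelihood test.

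Depth ran from 23414255 to 27674831 counts in embryo libraries and from 16400137 to 22113787 in yolk sac libraries. The targeted gene followed its label in embryos: Setd2 stood at 232 and 229 CPM (counts scaled to the TMM-adjusted library size) in null-line WT, 169 and 157 in HE and 93.3 and 104 in HO, a log2 change of -1.23 ± 0.07 (SE, edgeR adjusted p = 4.67e-07). The catalytic dead allele left the transcript at 218 and 213 CPM in HO against 224 and 255 in WT, and a count per gene does not check that mutation. In yolk sacs the null-line WT libraries had 102 and 114 CPM of Setd2, the HE libraries 114 and 120, and the HO libraries 75.6 and 78.9, a log2 change of -0.49 in HO (edgeR adjusted p = 0.0113) and of 0.11 in HE (adjusted p = 0.9998), while catalytic dead WT yolk sacs had 178 and 190. Setd2 thus did not tell HE from WT in null-line yolk sacs, and comparisons of libraries with those labels have no such check there. Defining markers matched the tissue: the 8 yolk sac endoderm genes summed to between 27156 and 44432 CPM in yolk sacs and to between 11.1 and 97.03 in embryos except WT replicate 2 of the catalytic dead line, which had 743, and the 8 embryo markers to between 260.3 and 382 CPM in embryos and to between 0.814 and 2.68 in yolk sacs. The 5 trophoblast and decidua markers summed to 17.1 CPM in null-line HO embryo replicate 2 and to at most 1.38 in the other embryo libraries, and to 70.5 CPM in catalytic dead HO yolk sac replicate 1 and to at most 15.8 in the other yolk sac libraries. Some values moved with the homozygous label in embryos. Mitochondrial transcripts made up 1.46% to 1.62% of HO counts and 1.91% to 1.98% of WT counts, and the 8 embryo markers summed to 260.3 to 330.2 CPM in HO and 352 to 382 in WT. The 4 primitive blood markers summed to 1242 and 87.7 CPM in null-line HO against 1951 and 2914 in WT. In the catalytic dead line they overlapped, at 579 and 1513 in HO against 2156 and 1072 in WT. The part of these values in the results below was not tested, and in whole tissue fewer cells of a type and less RNA per cell cannot be told apart. By Xist and Ddx3y, both catalytic dead WT embryo libraries were male and both HO libraries female, and in that line's yolk sacs both WT libraries were female and both HO libraries male, so that sex and genotype coincide there, in opposite senses in the tissues. In the null line both WT embryo libraries were female and both HE libraries male. Catalytic dead HE yolk sac replicate 2 held both Xist (897 CPM) and Ddx3y (88.3 CPM).

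In WT embryos the members ranged over FPKM, the deposited fragment count scaled by gene length and library total, from 0.243 for Zfp536 to 71.7 for Zfp207, a spindle protein that guards kinetochore attachment, with a median of 4.95. KRAB members had a median of 3.40 FPKM and members without a KRAB box 8.38. Next to Zfp207 came Zfp106, an RNA-binding protein needed by motor neurons, at 57.7 FPKM, and Zfp422 at 43.2. The ranges of the 4 WT embryos, 68.5 to 74.2 for Zfp207 and 55.8 to 61.2 for Zfp106, did not overlap, whereas Zfp422, Zfp146 and Zfp266, at 43.2, 40.3 and 39.9, overlapped one another. In WT yolk sacs the median was 2.40 FPKM, the highest member was Zfp106 at 48.0, and Zfp568, a KRAB repressor of a placental Igf2 transcript, at 38.5 (37.03 to 39.7 over the 4 libraries) overlapped Zfp207 at 37.5 (34.6 to 39.6). In all, 157 members had a higher mean FPKM in embryos, 143 of them in each of the 4 WT embryos over each of the 4 WT yolk sacs, and 12 lay the other way without overlap. The widest ratios were those of Zfp536 and Zfp423, both neural regulators: Zfp423 stood at 10.8 FPKM in embryos and 0.721 in yolk sacs. Zfp185, an actin-associated LIM protein, lay the other way, at 3.55 and 13.1 FPKM.

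In homozygous null embryos the members fell far more often than they rose. Of 181, 72 fell and 9 rose (edgeR, adjusted p below 0.05), with a median log2 change of -0.22 against 0.02 for all genes tested. The background was 16.5% of all 19215 genes called lower and 16.2% called higher, while 39.8% of members were lower and 4.97% higher. A negative change was fitted for 140 members, and both HO libraries lay below both WT libraries for 109 (31.9% of all genes did so). Of the members called lower, 17 had a fitted fall of at least 2-fold (over all genes, called or not, the 6th percentile was a log2 change of -0.99). Without HO replicate 2 of that line 71 were called lower. In catalytic dead embryos, compared with their own WT libraries, 60 members fell and 4 rose, with a median of -0.23 against 0.00 for all genes. Here 9.14% of all genes were called lower and 6.92% higher, 33.1% of members were lower, and 113 members had both HO libraries below both WT libraries (28.3% of all genes). With sex as a term, catalytic dead embryos had 1112 of all 19215 genes called either way, where 1757 fell and 1330 rose without it. In that fit 26 members were called lower, with a median change over members of -0.22. Without HO replicate 2 of that line 29 were called, without HO replicate 1 it was 31, and without WT replicate 2 it was 51.

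The lines shared most of their falls. The 2 comparisons use separate libraries but 1 estimate of the spread. Of the members called lower, 51 were called in both lines, 70.8% of the null list and 85.0% of the catalytic dead list, and none was called in opposite directions. The fitted changes had the same sign for 157 of 181 members, 127 of them negative in both. Across the 181 genes, which are not independent replicates, Pearson's r between the lines was 0.839. The overlap, the shared signs and r were taken over members alone. Whether they exceed those over all genes was not tested. No member was called for the difference between the lines in embryos (0.0208% of all genes were called). DESeq2 called 1 member and 192 of all genes. At an unadjusted p below 0.05 there were 18 members, and the share of all genes at that p is not given here. The absence of calls does not show that the lines act alike: for Zfp229 the fall was 0.88 in null and 1.298 in catalytic dead embryos on the log2 scale.

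**Figure D1:**
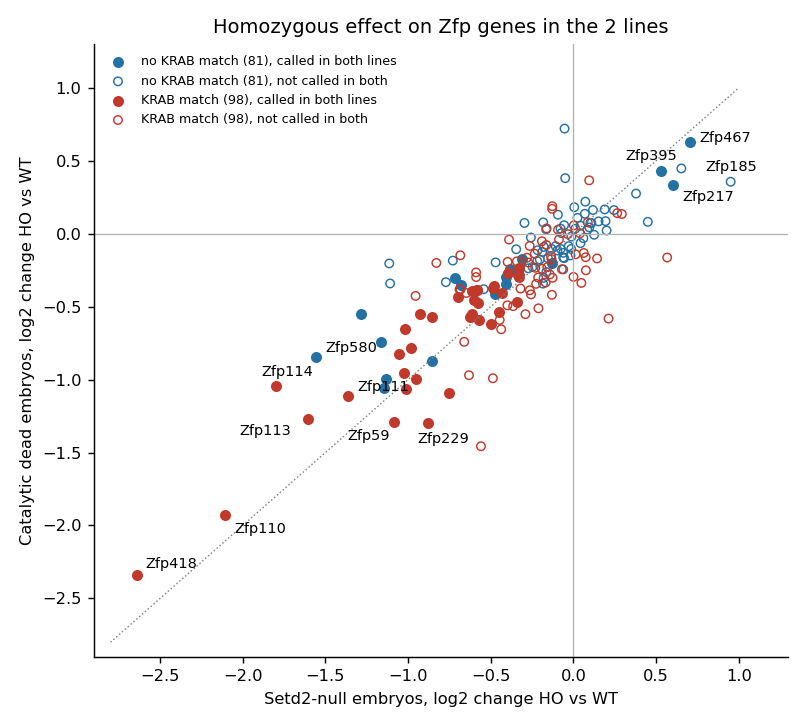
Each point is a member, placed by its fitted log2 change in homozygous against WT embryos of the Setd2-null line (x axis) and of the catalytic dead line (y axis). Red marks a KRAB match and blue none, filled points were called in both lines, the dotted line marks equal change, and Zfp125 and Zfp469, which have no coding sequence, are not drawn. All of the 51 shared falls but Zfp125 lie to the lower left, from Zfp91 near the centre to Zfp418, and 3 shared rises to the upper right.

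The most clearly lowered member was Zfp110 (chr7:12834761-12850577, plus strand, mm10), a KRAB protein known as a partner of the neurotrophin receptor p75. In null-line embryos it stood at 36.8 and 38.5 CPM in WT, 35.8 and 34.2 in HE and 8.44 and 9.02 in HO. In the catalytic dead line it stood at 40.1 and 34 CPM in WT, 36.5 and 35.9 in HE and 9.19 and 10.3 in HO. The HO libraries of both lines lay below every WT and HE library, with log2 changes of -2.11 ± 0.10 (SE, edgeR adjusted p = 1.32e-07) and -1.93 ± 0.10 (adjusted p = 2.85e-07), or 4.31-fold and 3.8-fold lower. Zfp329, a gene with 12 finger matches and no KRAB box that lies next to Zfp110 (chr7:12804977-12818858, minus strand), stood at 66.0 and 70.9 CPM in null-line WT, 61.8 and 63.6 in HE and 30.5 and 31.9 in HO. Its values in the catalytic dead line were 61.6 and 62.8 in WT, 60.7 and 58.9 in HE and 31.8 and 30.4 in HO. HE and WT lay close together in both lines, and the log2 changes in HO were -1.13 ± 0.06 and -0.999 ± 0.06 (edgeR adjusted p = 4.52e-07 and 1.87e-06).

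Zfp113, a KRAB gene on chromosome 5 (chr5:138139702-138155744, minus strand), fell from 42.4 and 43.9 CPM in null-line WT to 13.4 and 14.9 in HO, and from 42 and 36.8 to 17.2 and 15.4 in the catalytic dead line. The log2 changes were -1.61 ± 0.09 and -1.27 ± 0.09 (edgeR adjusted p = 4.86e-07 and 5.06e-06). Zfp111 and Zfp180, neighbours in a cluster on chromosome 7 whose promoters are printed above, moved alike. Zfp111 went from 33.4 and 30.1 CPM to 12.2 and 12.5 in the null line and from 31.9 and 32.9 to 14.9 and 15.1 in the catalytic dead line. Zfp180 went from 42.6 and 40.6 CPM to 19.5 and 18.2, and from 39.8 and 35.6 to 16.8 and 19.4. Their log2 changes were -1.36 and -1.11 for Zfp111 and -1.14 and -1.06 for Zfp180, all called (largest edgeR adjusted p = 2.51e-05). Zfp266 was the most abundant of the clearest falls and changed least among them: its 286 and 297 CPM in null-line WT became 186 and 194 in HO, and its 274 and 264 in catalytic dead WT became 186 and 181. Zfp229 and Zfp81, both KRAB genes of chromosome 17, completed the 8 of smallest p over both lines, with log2 changes of -0.88 and -1.298 for Zfp229 and -1.03 and -0.95 for Zfp81. The lowest fitted change belonged to Zfp418, a scarce KRAB member named here after its values were seen, at 4.40 and 5.21 CPM in null-line WT and 0.578 and 0.965 in HO, a log2 change of -2.64 ± 0.31 (edgeR adjusted p = 7.95e-05). In the catalytic dead line Zfp418 changed by -2.34 ± 0.30 (adjusted p = 0.000379).

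**Figure D2:**
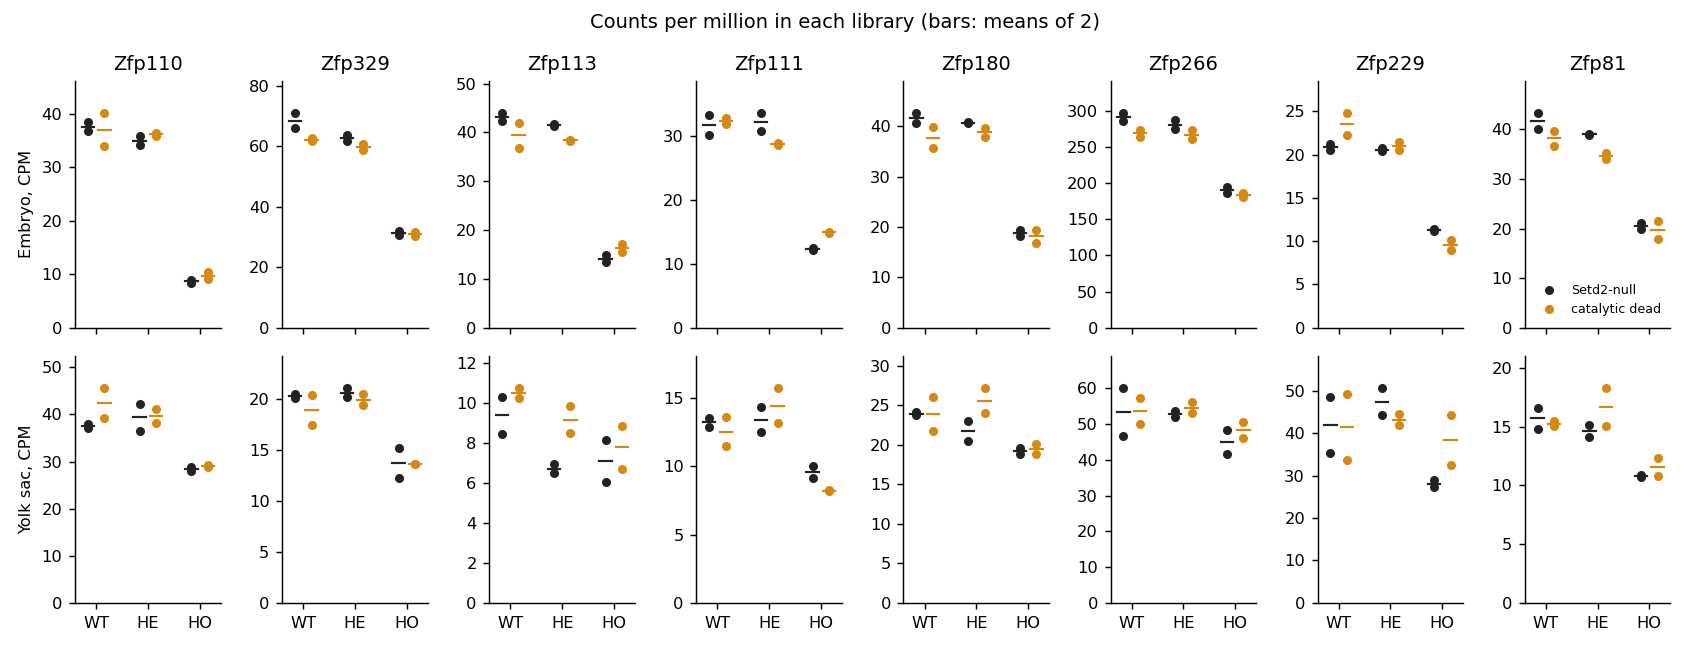
CPM in each library (y axis, from 0, scaled per panel) by genotype (x axis) for the 8 members of smallest p over both lines. The upper row shows embryos and the lower row yolk sacs, black points the Setd2-null line, orange points the catalytic dead line, and bars the means of 2 libraries. In embryos both HO libraries lie below every WT and HE library of their line in all 8 panels, as for Zfp110 at 8.44 to 10.3 CPM, and the steps are smaller in yolk sacs.

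A larger share of members with a KRAB box fell than of those without. In null embryos 45 of 98 KRAB members fell and 1 rose, with a median log2 change of -0.35, and 26 of 81 without a KRAB box fell and 8 rose, with a median of -0.09. In catalytic dead embryos 42 KRAB members fell and 1 rose (median -0.37), against 17 falls and 3 rises in members without one (median -0.10). No test of the difference between these classes was made. The summed CPM of KRAB members was 2630 and 2687 in null-line WT, 2564 and 2608 in HE and 2010 and 2122 in HO, and 2583 and 2529 in catalytic dead WT, 2509 and 2507 in HE and 2025 and 2022 in HO. The HO sums thus lay below all WT and HE sums, with means that fell by 22.3% and 20.8%, while the sums of members without a KRAB box fell by 8.18% and 7.10%. Of 144 Zfp genes numbered 600 and above, 59 (40.97%) fell and 21 (14.6%) rose in null embryos, so that their share of rises was near the 16.2% of all genes, and 48 (33.3%) fell and 9 (6.25%) rose in catalytic dead embryos. By number of fingers, 41 and 36 of the 93 members with 11 or more matches fell in null and catalytic dead embryos. Of the 37 with 0 to 5 matches it was 14 and 8, where 16.5% and 9.14% of all genes fell. Members with finger numbers in between are not given here, so no trend with finger number can be read from these counts.

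**Figure D3:**
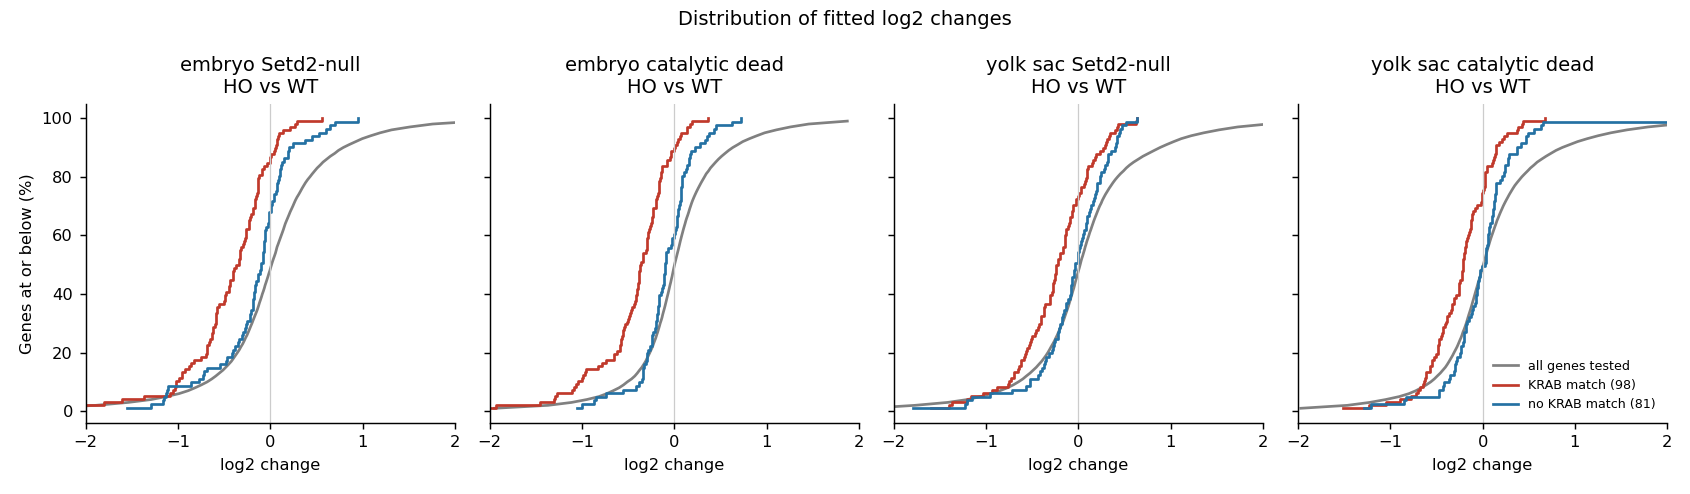
Cumulative share of genes (y axis, percent) at or below a fitted log2 change (x axis, cropped at -2 and 2) in the 4 comparisons of homozygous with WT. Red is the 98 KRAB members, blue the 81 members without a KRAB match and grey all genes tested. The red curve lies left of the others in both embryo panels, where its medians are -0.35 and -0.37, and less far left in yolk sacs, at -0.23 and -0.21.

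A larger share of members fell in genomic clusters than outside them, again with no test of that difference. The members formed 13 runs of at least 3 genes, each within 500 kb of the next, which held 76 members. In null embryos 45 of these fell and 1 rose, and in catalytic dead embryos 35 fell and 1 rose. Of the 105 members outside runs, 27 and 25 fell. Over all genes tested, 16.5% were called lower in null and 9.14% in catalytic dead embryos. KRAB members inside runs had medians of -0.50 and -0.41, and those outside had -0.23 and -0.28. Of the 49 members on chromosome 7, 30 fell in null and 26 in catalytic dead embryos and none rose in either. Off that chromosome 42 and 34 of 132 fell. The share over all genes on chromosome 7 is not given here, so its members cannot be told apart from the chromosome as a whole. Other protein-coding genes, with no zinc finger name, were few in these runs: 22 were tested, of which 14 and 11 fell and 1 rose in each line, so that the falls in the runs included genes of other kinds. Of these falls, 9 and 7 lay in the run on chromosome 5 that holds Zfp113, where 10 such genes were tested.

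The runs differed among themselves. In the run of 11 members on chromosome 7 (chr7:24081924-24515682), from Zfp180 to Zfp428, 10 fell in null and 6 in catalytic dead embryos, with medians of -0.77 and -0.59. The exception in the null line was Zfp112 at -0.66, which stood at 0.339 FPKM in WT embryos. In the run around Zfp110 (chr7:12415153-12985714) 5 and 4 of 6 fell, with Zfp446 at -0.18 and -0.09. All 3 members of a run on chromosome 9 fell in both lines, Zfp560 by 0.98 and 0.78, Zfp426 by 0.63 and 0.57 and Zfp266 by 0.62 and 0.55 on the log2 scale. The longest run, 13 members on chromosome 7 (chr7:29768552-30169750), was mixed: 7 and 6 fell, among them Zfp382 at -1.02 and -0.66, while the KRAB gene Zfp568 had changes of 0.07 and -0.16 and was called in neither. The run of 12 KRAB genes on chromosome 13 (chr13:67194506-67827002) held few falls. Only Zfp595 fell, in null embryos and by 0.40, and none fell in catalytic dead embryos. Its median was 0.03 in null embryos, above that of each other run, and -0.18 in catalytic dead embryos, close to those of other runs. That run holds Zfp429, Zfp456, Zfp458 and Zfp459, related copies with few reads, which the counting may have split among them, and changes of this size were within their error.

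**Figure D4:**
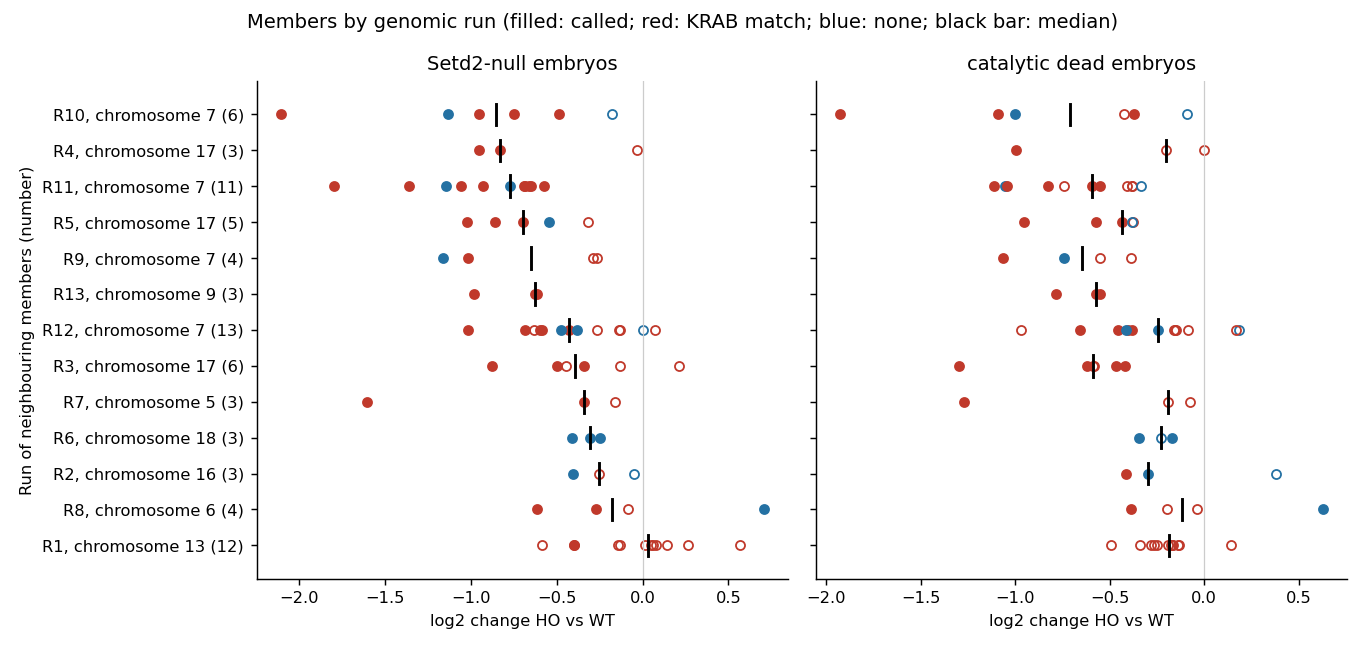
Fitted log2 change in homozygous against WT embryos (x axis) for the 76 members in 13 genomic runs (y axis, labelled by chromosome and number of members). Filled points were called, red marks a KRAB match, blue none, and the black bar is the run's median. The runs on chromosome 7 with 6 and 11 members and the run of Zfp40, Zfp213 and Zfp13 on chromosome 17 lie furthest left in null embryos, at medians of -0.85, -0.77 and -0.83, and the chromosome 13 run of 12 has medians of 0.03 and -0.18.

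By role, few of the imprint and transposon repressors among the members were called. Of 6, only Zfp445 (16.7%, where 16.5% of all genes fell in null and 9.14% in catalytic dead embryos), a KRAB protein that helps to keep imprints methylated, fell: from 245 and 258 CPM in null-line WT to 190.5 and 209.6 in HO, and from 237 and 225 to 190 and 190 in the catalytic dead line, log2 changes of -0.33 ± 0.06 and -0.28 ± 0.06 (edgeR adjusted p = 0.000969 and 0.00599). Among 13 general transcription and chromatin factors 2 fell and 2 rose in each line (15.4% each way, where 16.5% and 16.2% of all genes fell and rose in null and 9.14% and 6.92% in catalytic dead embryos). Zfp410, an activator known for its target Chd4, fell in both, by 0.33 and 0.28 on the log2 scale, and Zfp148 in null and Zfp407 in catalytic dead embryos. Chd4 itself had log2 changes of 0.33 (edgeR adjusted p = 0.0101) and 0.05 (adjusted p = 0.763). Of 9 neural and lineage regulators, Zfp521 and Zfp536 fell in null embryos, by 0.35 and 1.11, and none was called in catalytic dead embryos. Of 9 members with roles in RNA, ribosomes, the spindle or protein turnover, Zfp91, a ubiquitin ligase, fell in both lines by 0.13 and 0.20, and Zfp277 and Zfp330 rose in null embryos. Zfp207 and Zfp106, the most abundant members, had changes of -0.06 in null and of -0.13 and -0.16 in catalytic dead embryos, and neither was called. Several of these calls were lost when single libraries were left out, which leaves 1 library in a group. A lost call alone does not show that the library left out had carried it. In null embryos the call of Zfp148 was lost without any 1 of 3 of the 4 libraries (range over the 4 -0.16 to -0.42), that of Zfp91 likewise (-0.12 to -0.17), that of Zfp536 without WT replicate 1 (-0.88) or HO replicate 2 (-0.71), with -1.74 without HO replicate 1, and those of Zfp410 (-0.31) and Zfp330 (0.24) without WT replicate 2. In catalytic dead embryos the call of Zfp410 was lost without WT replicate 1 (-0.2003) or either HO replicate (-0.35 and -0.24), and those of Zfp407 and Zfp91 without either HO replicate.

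The partners that KRAB proteins recruit did not move one way. Of 27 cofactor genes, 6 (22.2%) fell and 8 (29.6%) rose in null embryos (median 0.06), where 16.5% and 16.2% of all genes did. In catalytic dead embryos 4 (14.8%) fell and 2 (7.41%) rose (median -0.06), against 9.14% and 6.92% of all genes. Trim28 had log2 changes of 0.13 (edgeR adjusted p = 0.198) and 0.07 (adjusted p = 0.533), and Setdb1 of 0.06 and 0.04, neither called. Chd3, Mta2, Cbx1 and Atrx fell in both lines, Atrx by 0.40 and 0.44, and Mta3 and Rbbp7 rose in both. Of 27 rows tested for C2H2 genes of the same kind without the Zfp name, 14 (51.9%) fell and 3 (11.1%) rose in null and 13 (48.1%) fell and 1 (3.7%) rose in catalytic dead embryos. Zik1 had log2 changes of -2.42 and -2.24 and Zkscan5 of -2.18 and -1.92, beside -2.11 and -1.93 for Zfp110. These lists were drawn up with earlier results of these data known.

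The 9 members that rose in null embryos were Zfp1, Zfp142, Zfp185, Zfp217, Zfp277, Zfp330, Zfp395, Zfp438 and Zfp467, of which only Zfp1 has a KRAB box. Zfp467, a factor that favours fat over bone fate, went from 13.1 and 12.4 CPM in null-line WT to 19.9 and 21.8 in HO, and from 13 and 14.8 to 20.5 and 22.6 in the catalytic dead line, log2 changes of 0.71 ± 0.11 and 0.63 ± 0.11 (edgeR adjusted p = 0.000457 and 0.00243). Zfp395 went from 45.3 and 40.9 CPM to 60.3 and 64.4 in the null line and from 49.5 and 54.6 to 70.7 and 69.3 in the catalytic dead line. Zfp217, a partner of the CoREST repressor complex, went from 67.8 and 64.2 CPM to 98.5 and 102, and from 71.3 and 90.3 to 99.7 and 104. These 3 rose in both lines, with HO libraries above WT and HE libraries each time. Zfp185 was called in null embryos alone, and the difference between the lines was not called. It went from 11.4 and 10.9 CPM to 21.4 and 21.7 in the null line (log2 change 0.95 ± 0.17, edgeR adjusted p = 0.00143), but WT values of 11.8 and 18.9 in the catalytic dead line left its change there at 0.36 (adjusted p = 0.18). Zfp120, a KRAB gene, was the fourth rise in catalytic dead embryos, at 0.37 (edgeR adjusted p = 0.0471). In null embryos the call of Zfp142 was lost without WT replicate 2 (0.22) or HO replicate 1 (0.29) and that of Zfp438 without WT replicate 2 (0.53). The call of Zfp120 was lost without any 1 of the 4 libraries compared (0.29 to 0.43), and that of Zfp217 in catalytic dead embryos without WT replicate 1 (0.17), HO replicate 1 (0.36) or HO replicate 2 (0.28).

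Heterozygous embryos did not share the fall to a degree that could be called. No member was called in HE against WT in either tissue or line by edgeR or DESeq2, with 6 and 8 members at an unadjusted p below 0.05 in null and catalytic dead embryos and 3 and 3 in yolk sacs. Over all genes, 0.0104% and 0.0156% were called in embryos and 0% in yolk sacs. The share of all genes at that unadjusted p is not given here. For the 51 members that fell in both lines the median HE change was -0.05 in null and 0.01 in catalytic dead embryos, against -0.63 and -0.55 in HO. The HE change was negative for 40 of the 51 in null and 23 in catalytic dead embryos. Both HE libraries lay below both WT libraries for 17 and 10 of the 51, where 16.8% and 20.6% of all genes did so. The share of the 51 was thus above that of all genes in null embryos and near it in catalytic dead embryos. HE and HO are compared with the same WT libraries, and the 51 were chosen by their HO values. Both HE libraries lay above both HO libraries for 51 of the 51 in each line. Setd2 itself was at 163 ± 8.27 CPM (SD, n = 2) in null-line HE embryos against 231 ± 2.12 in WT.

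In yolk sacs few members were called. In homozygous null yolk sacs 9 members (4.97%) fell and none rose (edgeR), a share near the background, where 3.97% of all 17755 genes were called lower and 2.3% higher, with 41 at an unadjusted p below 0.05 and a median log2 change of -0.14 against 0.02 for all genes. In catalytic dead yolk sacs Zfp110 alone (0.552%) fell and none rose, below the 1.89% and 1.27% of all genes, with 31 at an unadjusted p below 0.05 and a median of -0.13. The share of all genes at that unadjusted p is not given here, so the 41 and 31 cannot be set against it. DESeq2 called 14 and 8 members lower, and leaving out a library of the null line lowered the 9 to between 0 and 4. Without catalytic dead HO replicate 1 the count there was 2, and with sex as a term it was 0. Over all genes, DESeq2 called 1520 and 1151 either way, and the sex term left 664 and 98. The edgeR fit without that term called 705 lower and 408 higher in null and 335 and 225 in catalytic dead yolk sacs. Both HO libraries lay below both WT libraries for 75 and 59 members, against 27% and 23.9% of all genes. The spread was wider there: over the 51 members that fell in both embryo lines the median SE was 0.20 in each yolk sac comparison and 0.10 in each embryo comparison. Of those 51, 42 and 43 had a negative change in yolk sacs, with medians of -0.31 and -0.25. The KRAB sum fell by 10.8% and 9.26% in yolk sacs, from 1358 and 1470 CPM to 1283 and 1239 in the null line and from 1411 and 1422 to 1230 and 1340 in the catalytic dead line. Yolk sac endoderm markers moved with genotype, at 36843 to 41925 CPM in WT and 27156 to 36153 in HO, and their part was not tested.

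Among the 9 falls of null yolk sacs, Zfp329, Zfp366, Zfp422, Zfp59 and Zfp61 had also fallen in null embryos, which is 55.6% of the yolk sac list and 6.94% of the embryo list. Zfp61, a KRAB gene, went from 5.20 and 3.31 CPM to 0.981 and 1.84 in null yolk sacs (log2 change -1.60 ± 0.42, edgeR adjusted p = 0.0452), and from 3.79 and 5.75 to 2.28 and 1.02 in catalytic dead ones, where the adjusted p was 0.0701. The other 4 were Zfp202, Zfp469, Zfp473 and Zfp503. Zfp473 was also called lower in catalytic dead embryos (-0.50), a call lost without any 1 of the 4 libraries compared there. Zfp503, a repressor known from the developing striatum and limb, went from 7.12 and 9.57 CPM to 1.92 and 2.92 (log2 change -1.79 ± 0.33, edgeR adjusted p = 0.00968), and stood at 4.99 and 5.65 in catalytic dead WT and at 2.65 and 1.67 in HO (log2 change -1.28, adjusted p = 0.0619). In WT embryos Zfp503 had 17.8 FPKM against 1.61 in WT yolk sacs, and it was at 76.1 and 68.2 CPM in null-line WT and 76.1 and 50.7 in HO. Zfp473, a factor of histone pre-mRNA processing, went from 14.9 and 15 CPM to 6.68 and 4.64 in null yolk sacs (log2 change -1.40 ± 0.24, edgeR adjusted p = 0.00684). Zfp110 went from 39.2 and 45.5 CPM to 29.3 and 28.8 in catalytic dead yolk sacs (log2 change -0.54 ± 0.12, edgeR adjusted p = 0.0375) and from 38 and 37.1 to 28.9 and 28 in null ones (-0.40 ± 0.12, adjusted p = 0.078). All 4 HO libraries were below all 4 WT libraries. Each of these yolk sac calls was lost without at least 1 of the 4 libraries compared. Those of Zfp110 (-0.44 to -0.65), Zfp61 (-1.22 to -2.13), Zfp329 (-0.43 to -0.74), Zfp366 (-0.897 to -1.05), Zfp422 (-0.49 to -0.59) and Zfp59 (-0.62 to -1.11) were lost without any 1 of them, and the embryo call of Zfp366 remained only without HO replicate 1 (-1.43). The call of Zfp202 was kept only without HO replicate 2 (-0.84), and that of Zfp469 was lost without WT replicate 2 (-0.83) or HO replicate 1 (-0.71), that of Zfp503 without WT replicate 2 (-1.57) or HO replicate 1 (-1.53), and that of Zfp473 without WT replicate 2 (-1.40).

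The difference between tissues was tested in 1 fit of all 24 libraries, as the homozygous effect in yolk sac minus that in embryo, averaged over the lines. It was called for 38 members, 31 higher in yolk sac and 7 lower, where 8.01% of all 20543 genes were called higher and 8.59% lower. Of the 51 members that fell in both embryo lines, chosen by those same embryo values, 22 fell less in yolk sac and 0 fell more, with a median difference of 0.34. For single members the difference was 1.52 ± 0.11 for Zfp110 (edgeR adjusted p = 8.42e-08), 0.77 ± 0.11 for Zfp180 and 1.001 ± 0.16 for Zfp113. For Zfp444 it was 1.21 ± 0.19: its CPM in null-line embryos fell from 24.9 and 25.7 to 12.2 and 10.4, and in null yolk sacs it was 14.9 and 14 in WT and 17.1 and 17.9 in HO. Differences the other way were found for Zfp503 (-1.50 ± 0.25), Zfp469 (-1.35 ± 0.23), Zfp467, Zfp473, Zfp202, Zfp277 and Zfp217. With sex as a term 19 members and 1628 of all 20543 genes were called either way. The catalytic dead line enters this difference with male WT and female HO embryos and female WT and male HO yolk sacs. No member was called for the difference between the lines in yolk sacs (0.0282% of all genes were called). DESeq2 called 0 members and 11 of all genes. At an unadjusted p below 0.05 there were 4 members, and the share of all genes at that p is not given here.

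**Figure D5:**
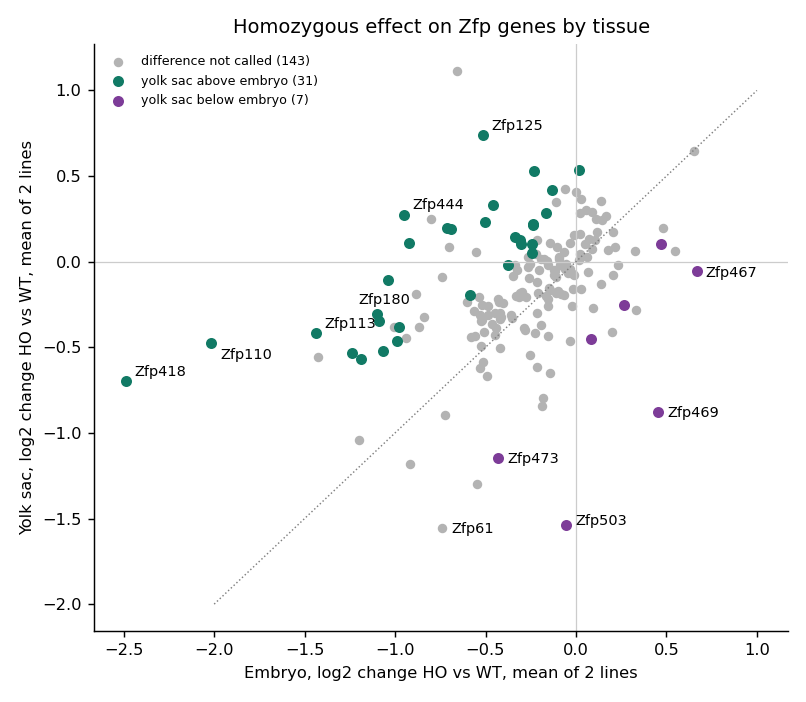
Fitted log2 change in homozygous against WT, averaged over the 2 lines, in embryos (x axis) and yolk sacs (y axis) for the 181 members. Green points were called higher in yolk sac than in embryo (31), purple points lower (7) and grey points neither, and the dotted line marks equal change. Most points left of 0 lie above the dotted line, Zfp110 by 1.52, and Zfp503 and Zfp469 lie far below it.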

How the data were processed

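Messenger RNA libraries were made with the KAPA mRNA HyperPrep kit and run on an Illumina sequencer, per the labels' protocols. The submitters' processing notes name fastp 0.22.0, HISAT2 2.2.1, featureCounts 2.0.1 and DESeq2 1.32.0, and the build mm10. The deposited tables hold raw read counts per gene and FPKM computed by the authors, which equal count over length and total to a relative tolerance of 0.001 and were used only for levels between genes. How strand was used and which annotation release was counted were not stated; 77 members overlap another annotated gene and KRAB genes have near-identical copies, so reads may be shared.

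Counts were tested per tissue over 12 libraries and 6 groups (6 residual degrees of freedom) with edgeR 4.0.16 in R 4.3.3: filterByExpr (minimum 10), TMM, quasi-likelihood F-test, Benjamini-Hochberg over all genes tested, threshold 0.05. CPM are on TMM-scaled library sizes, except the sums of tissue and blood markers, which are on library totals. The tissue difference came from 1 fit of 24 libraries (12 residual degrees of freedom). The fits were tested on simulated data. Replicates differed by more than counting noise (chi-square per degree of freedom 2.77 to 28.7), so none was merged.

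KRAB boxes were found with pyhmmer 0.12.3 (E-value at most 0.0001) and positions come from GENCODE M21. Named members are up to 8 falls and 8 rises of smallest p per homozygous comparison, up to 8 shared by both lines, and up to 6 for other comparisons. Role lists were given whole. The members and lists were chosen with earlier results of these data known, and the Zfp143 motif was set after a shorter form of it had been searched. Alternatives were RLE factors, library totals alone, no low-count filter, DESeq2 1.42.0, only the groups compared, a replicate block, a sex term, a mean count of at least 100 and leaving out each library.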

Additional observations from a re-analysis of the deposited data

Results flagged for a closer look

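The homozygous effect differed between yolk sac and embryo, by the interaction term of the 24-library fit (edgeR, adjusted p below 0.05), for 17 of the members named by the rule. On the log2 scale as yolk sac minus embryo, it was higher in yolk sac for Zfp110 (1.52), Zfp180 (0.77), Zfp113 (1.001), Zfp444 (1.21), Zfp329 (0.52), Zfp111 (0.68), Zfp81 (0.50), Zfp229 (0.72), Zfp266 (0.37) and Zfp59 (0.60). It was lower in yolk sac for Zfp503 (-1.50), Zfp469 (-1.35), Zfp277 (-0.54), Zfp467 (-0.75), Zfp202 (-0.55), Zfp217 (-0.39) and Zfp473 (-0.74). The first group holds members that fell in embryos and fell less, or did not fall, in yolk sacs. In the second, Zfp503, Zfp469, Zfp473 and Zfp202 fell in null yolk sacs, and Zfp467, Zfp217 and Zfp277 rose in embryos of at least 1 line.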

How the results depend on the processing

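In each alternative run, more members fell than rose in embryos of both lines, and the median change was negative. For null embryos the count of lower members went from 58 to 71 when single libraries were left out and that of higher members from 5 to 10. For catalytic dead embryos these ranges were 29 to 51 and 2 to 4. With the sex term 26 catalytic dead members were lower and 2 higher, and with only the groups compared 33 and 2; the sex term is estimated from other groups there, and the second fit has fewer libraries. Leave-one-out counts were 0 in HE comparisons, except 0 to 3 in catalytic dead embryos, where dropping the low-count filter gave 1. The difference between the lines in embryos gave 0 to 7 without single libraries, 4 without the low-count filter and 1 by DESeq2, and in yolk sacs 0 throughout. In null yolk sacs the 9 falls became 0 to 4 without single libraries, 14 by DESeq2 and 5 with the sex term, and 2 members were higher without the filter and 2 with only the groups compared. In catalytic dead yolk sacs the 1 fall became 0 to 2 without single libraries, 7 without the filter (with 2 higher), 8 by DESeq2, and 0 with library totals alone, the sex term or only the groups compared; higher members were 0 without single libraries in both yolk sac comparisons. The tissue difference gave 32 to 43 without single libraries and 19 with the sex term. Over all genes, fewer were also called in catalytic dead embryos and in null yolk sacs without any 1 of the 4 libraries compared. The causes were not tested.

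Of 660 values of named and role-list members under alternatives, 540 stayed called, 120 kept their sign but were no longer called, and 0 reversed. A lone library left in a group was assumed to vary like the other groups. Replicate numbers did not pair the samples: deviations of same-numbered libraries correlated between -0.114 and 0.0778 in embryos and between -0.122 and 0.175 in yolk sacs. With the replicate block 69 members were lower in null and 57 in catalytic dead embryos, all among the 72 and 60. The biological coefficient of variation was 0.165 in yolk sacs and 0.087 in embryos, with 2 libraries per group in both.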
